A study of Mus musculus with 24 samples.

Results

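The MeRIP-seq peak lists of 12 mouse hippocampi held 475 regions that were found in at least 5 of the 8 lists from 5xFAD mice and in none of the 4 lists from wild-type mice. They are called 5xFAD-only peaks below, which refers to the lists and not to the absence of signal in wild-type RNA. MeRIP-seq is immunoprecipitation of RNA with an antibody against N6-methyladenosine (m6A), followed by sequencing of the bound RNA (IP) and of the starting RNA (input). To choose these regions, rows with equal coordinates in a list were collapsed, and peaks of all 12 lists that overlapped by at least 1 base were merged, which gave 13683 merged peaks. The 5xFAD-only peaks were 3.47% of them. The regions were thus chosen by the measured peak calls of both genotypes, so every value of 5xFAD against wild-type below is a description and supports nothing. The choice treated vehicle and MS1262 lists alike, and MS1262 against vehicle was tested. With at least 5 of 8 lists asked for, a peak found under vehicle only or under MS1262 only could not enter.

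Each of 3 groups held 4 animals. These were age-matched wild-type mice that received nothing, 5xFAD mice dosed with vehicle, and 5xFAD mice dosed with MS1262. 5xFAD mice carry human transgenes, a mutant APP among them, with familial Alzheimer's disease mutations, driven by the neuronal Thy1 promoter, and develop amyloid plaques with reactive glia. The submitters describe MS1262 as an inhibitor that enters the brain and acts on G9a, a histone H3K9 methyltransferase. Since the wild-type mice had no vehicle, genotype and dosing cannot be told apart. The dose, the age and the duration of dosing were not given in the sources used here.

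The m6A mark is placed on nascent messenger RNA by a writer complex around the METTL3 and METTL14 proteins, with adapter subunits such as VIRMA. It is removed by demethylases and bound by reader proteins that affect splicing, export, translation and decay. Sites lie mostly near stop codons, in 3' untranslated regions and in long exons, within a short context whose most frequent core is GGAC. In brain, m6A is abundant and has been tied to learning, to axon growth and to glial maturation.

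The sequences below show what the RNA of such regions looks like where a reference sequence was at hand. They come from RefSeq (GRCm38.p6), are written 5' to 3' on the transcribed strand, and have GGAC in capitals. Of 3 microRNA hairpins inside 5xFAD-only peaks, 2 held GGAC and are shown. The hairpin without it, Mir8099-2 on chromosome 12, lay in a peak of 5 lists. Those shown are the hairpin of Mir12193 (chr19:6134801-6134863, minus strand) in Arl2, and that of Mir6931 (chr11:102999848-102999921, minus strand) in Dcakd. The Arl2 peak was found in 7 5xFAD lists and the Dcakd peak in 5.
Mir12193: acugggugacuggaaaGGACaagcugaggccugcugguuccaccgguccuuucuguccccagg
Mir6931: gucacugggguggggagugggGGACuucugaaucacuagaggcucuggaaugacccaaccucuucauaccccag

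A further 13 5xFAD-only peaks, in 12 host genes, covered at least 30 of the 50 transcribed bases after an annotated start site of their host gene. Within the covered bases, GGAC stood in 3 of the 13. For each of these the 30 bases holding it are shown, beside the same length for Slc1a1, whose peak was the highest at a start site and whose covered bases after the start held no match. The stretches lie at chrX:36598213-36598242 (plus strand) for Pgrmc1, chrX:94541983-94542012 (minus strand) for Maged1, chr16:23890795-23890824 (minus strand) for Sst and chr19:28835136-28835165 (plus strand) for Slc1a1.
Pgrmc1: ttcgctgggagggcggaggaagcGGACtgt
Maged1: ggcattttctcctGGACgcggagagagtgc
Sst: ccgaagccgtcgctgctgcctgaGGACctg
Slc1a1: gtggcagcgctgacagcggccggtgcgcgt

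GGAC was searched on the printed strand only. It occurred in 24.5% of the 1005 mouse hairpins in the table and in 18.9% of the 32851 windows of 50 transcribed bases. A match is a description and not a mapped site.

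Hippocampal identity was checked in input. Prox1 of dentate granule cells stood at 30.6 to 102.5 CPM (counts scaled to a common library size), Wfs1 of CA1 at 40.8 to 77.3, and Neurod6, Slc17a7 and Gad1 at 47.4 CPM or more in every library. The third vehicle animal stood apart in markers of choroid plexus, the secretory epithelium beside the hippocampus. Its Ttr was 7668 CPM against 33.0 to 811 CPM in the other 11 animals, and Folr1, Kl, Clic6 and Kcne2 were also highest there. Its Xist was 1.41 CPM against 23.5 to 52.3 CPM in the others. Thy1, whose promoter drives the transgenes, was 97.0 to 116 CPM in wild-type and 298 to 809 CPM in 5xFAD input. The lowest of the 5xFAD values belonged to the same animal. The fourth vehicle animal had the shallowest IP library, with 3.98 M counts and 5.48 M tags kept by the peak caller, against 10.6 to 48.6 M counts and 9.58 to 30.1 M tags in the other IP libraries. The 12 input libraries held 20.7 to 43.2 M counts.

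Most 5xFAD-only peaks were found in some and not in all 5xFAD animals. Of the 475, 49 were in 8 lists, 95 in 7, 144 in 6 and 187 in 5. Their fold enrichment of IP over input, as the authors' caller gave it, had a median of 2.06 and ran from 1.33 to 6.27, each peak taken at its median over the lists. A median of at least 2 was reached by 269 peaks and of at least 3 by 33. The caller's q value was below 0.05 in 5 or more 5xFAD lists for 425 peaks (89.5%). Just inside the limit of 5 lists stood peaks of Camk2a (4.41-fold), Arf4 (3.81-fold) and Ebna1bp2 (3.46-fold). Just outside, in 4 5xFAD lists and no wild-type list, were 279 merged peaks, led by those of Atp6v1h (3.91-fold), Fyb (3.90-fold) and Mobp (3.86-fold). Peaks on both sides of the limit were thus of like height.

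The median length of the regions was 508 bases, against 400 bases for all merged peaks. It was 777 bases for the 3083 merged peaks that were in at least 5 5xFAD lists and also in a wild-type list. For the 806 peaks found in all 12 lists it was 1239 bases. A merged region spans every peak merged into it, so its length can grow with the number of lists. These medians are therefore not like for like. A single protein-coding gene spanned 457 of the 475. A further 13 lay in several genes, 3 in none and 2 in noncoding genes. Host genes were compact, with a median span of 19.0 kb for the 5xFAD-only peaks and 29.8 kb for the shared ones. Among peaks in a single gene, the strand of the host was known for 379 (82.6%). Their median distance to the gene's 3' end was 2.48 kb, against 3.55 kb for all merged peaks and 3.73 kb for the shared ones. As a fraction of the gene's span from its 5' end, the median position was 0.776, against 0.818 and 0.820. Exon and intron structure was not used here. Chromosome 11 carried 76 of the 475 (16.0%) and 9.14% of all merged peaks.

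The 14 highest peaks among those in all 8 lists came from 13 genes. The highest was in Gfap, the intermediate filament of astrocytes, at chr11:102895291-102895967. Its fold enrichment was 7.16, 5.87, 5.67 and 8.10 in the vehicle lists and 5.97, 5.48, 6.63 and 6.58 in the MS1262 lists. No other 5xFAD-only peak in all 8 lists had a median above 3.57-fold, the value of Slc1a1. That gene encodes a neuronal glutamate and cysteine transporter, and the peak at chr19:28835136-28835462 covers its annotated start. The fold of the Slc1a1 peak was 3.50, 3.89, 3.53 and 2.40 under vehicle and 3.41, 3.88, 3.62 and 3.60 under MS1262. The low value was that of the animal with the shallowest IP library. Arf4, a small GTPase of the Golgi, had its peak at chr14:26638176-26638633 with a median of 3.55-fold. The others were in Arpc1b (an Arp2/3 subunit, with 2 of the 14), Gle1 (mRNA export), Nap1l4 (a histone chaperone), Tubg1 (gamma-tubulin), Zfp414, Cpt1c (a neuronal carnitine palmitoyltransferase), Rpl13 (a ribosomal protein), Chmp1a (endosomal sorting), Nacc2 and Caly. Their medians ran from 2.56 to 3.12-fold.

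**Figure D1:**
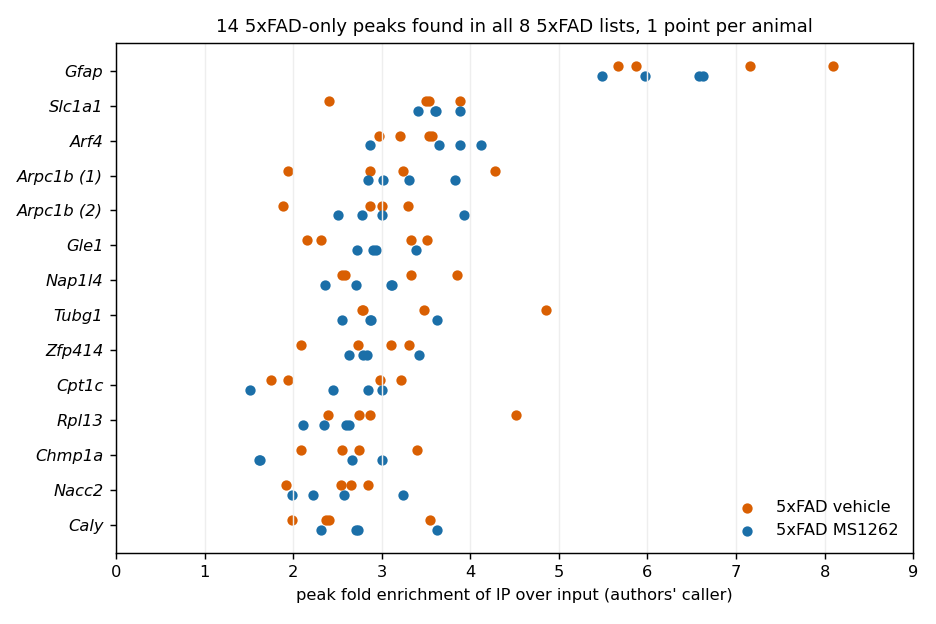
Peak fold enrichment of IP over input (x axis, the authors' values) of the 14 highest 5xFAD-only peaks found in all 8 5xFAD lists (y axis, host genes), with 1 point per animal, orange for vehicle and blue for MS1262. The Gfap peak lies between 5.48 and 8.10 and apart from the rest, and the points of both groups overlap for every peak.

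Astrocytes contributed Gfap above all. Gfap held 4 of the 475 peaks, in 7 or 8 lists each, with medians of 6.27, 2.35, 2.16 and 1.81-fold. It also held 3 other merged peaks, each in at least 1 wild-type list, so that the transcript was enriched at other places in wild-type mice too. Gfap input was 138, 80.8, 46.0 and 74.2 CPM in wild-type, 163, 274, 126 and 404 CPM under vehicle and 235, 311, 182 and 201 CPM under MS1262. The lowest vehicle animal lay below the highest wild-type animal. Gfap IP was 140, 125, 76.0 and 79.3 CPM in wild-type, 620, 978, 344 and 1427 CPM under vehicle and 942, 1477, 832 and 754 CPM under MS1262. Here the genotypes did not overlap. The ratio of IP to input was 1.01 to 1.65 in wild-type and 2.73 to 4.75 in 5xFAD. The fitted difference of 5xFAD from wild-type was 1.49 (SE 0.32) on the log2 scale in input and 1.56 (SE 0.148) in m6A enrichment, the change of IP beyond that of input. None of the other 18 genes listed for reactive astrocytes held a 5xFAD-only peak. Only 4 of the 19 listed genes, Gfap among them, held a merged peak of any kind, so that few could have been hosts. Over these 19 the median difference in m6A enrichment was -0.08. In a separate list of 15 astrocyte genes, 13 held a merged peak of any kind and 1, Atp1b2, held a 5xFAD-only peak. The median difference over that list was 0.17 in input and -0.06 in m6A enrichment. In bulk tissue, more cells of a type and more RNA per cell cannot be told apart.

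Microglia and complement genes among the hosts were higher in the input of most 5xFAD animals. Hosts were 2 of 30 genes listed for disease-associated microglia, 2 of 16 for homeostatic microglia and 3 of 20 for complement and antigen presentation. Over all 18300 genes tested, 376 (2.05%) were hosts. Of these listed genes, 18, 11 and 8 held a merged peak of any kind. Trem2, the lipid-sensing receptor of plaque-associated microglia, had 1 peak at chr17:48348594-48348904 in 7 lists, missing in the third vehicle animal. Trem2 input was 8.05, 5.57, 5.52 and 4.46 CPM in wild-type, 12.9, 23.8, 5.00 and 22.6 CPM under vehicle and 16.1, 24.9, 18.3 and 16.5 CPM under MS1262. Trem2 IP was 4.40, 2.88, 3.91 and 3.59 CPM, then 20.6, 33.1, 7.77 and 45.6 CPM, then 19.7, 35.4, 31.8 and 30.1 CPM. Every 5xFAD animal was above every wild-type animal in IP, while the third vehicle animal lay among wild-type in input. The Trem2 ratio was below 1 in all 4 wild-type animals (0.517 to 0.806) and above 1 in all 8 5xFAD animals (1.22 to 2.01). Its log2 difference was 1.58 (SE 0.333) in input and 1.33 (SE 0.176) in m6A enrichment. Gpnmb, a glycoprotein of lipid-laden microglia, held 2 peaks in 5 lists each, and its differences were 1.26 (SE 0.37) and 0.82 (SE 0.248).

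In Lyz2, C4b and Csf1r the difference lay mainly in input. Lyz2, the lysozyme of myeloid cells, held a peak in 6 lists at 1.54-fold. Its input was 9.41 to 14.5 CPM in wild-type and 18.6 to 86.9 CPM in 5xFAD. Its log2 difference was 2.31 (SE 0.349) in input and 0.27 (SE 0.137) in m6A enrichment, the latter 0.15 without the second wild-type animal. C4b, the complement component that tags synapses and plaques, had 1 peak in 5 lists, of which 1 was a vehicle list. It differed by 1.96 (SE 0.331) and 0.17 (SE 0.168), the latter 0.08 without the fourth vehicle animal. Csf1r, the receptor that keeps microglia alive, held 4 peaks in 5 or 6 lists each. Its input was 9.14 to 16.4 CPM in wild-type and 14.6 to 29.3 CPM in 5xFAD, and its ratio was 2.25 to 3.96 and 2.77 to 3.84, so that the ratios overlapped. C1qa and C1qb, subunits of the complement initiator C1q, had 1 peak each, in 7 and 6 lists. The C1qb difference was 1.19 (SE 0.245) in input and 0.92 (SE 0.152) in m6A enrichment. C1qa differed by 1.69 (SE 0.394) in input, at only 0.548 to 2.15 CPM in wild-type.

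Of 30 genes listed for disease-associated microglia, 18 held a merged peak of any kind and 2 held a 5xFAD-only peak. Against wild-type, 20 of the 30 were higher in input at an adjusted p below 0.05 (edgeR quasi-likelihood, Benjamini-Hochberg) and none was lower, beside 1.52% and 0.887% of all genes. In m6A enrichment 3 were higher and none lower, beside 2.15% and 0.104% of all genes. Of 16 genes listed for homeostatic microglia, 2 held a 5xFAD-only peak, Csf1r among them.

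Of 22 listed lysosome genes 17 held a merged peak of any kind and 4 held a 5xFAD-only peak, among them Hexa, Grn and Man2b1. Hosts were 2.05% of all genes tested, most of which held no merged peak. Of the 5417 genes that held a merged peak of any kind, 378 held a 5xFAD-only peak, noncoding genes included. Hexa, which encodes a lysosomal hexosaminidase chain, held 2 peaks, in 8 and 6 lists. Its input was 16.0 to 28.8 CPM in wild-type and 24.8 to 48.0 CPM in 5xFAD, and its IP was 30.5 to 42.9 CPM and 48.9 to 102.9 CPM. The genotypes overlapped in input and not in IP. The log2 difference of Hexa was 0.54 (SE 0.191) in input and 0.56 (SE 0.143) in m6A enrichment. Grn, the precursor of lysosomal granulins, and Man2b1, a lysosomal mannosidase, differed by 1.00 (SE 0.153) and 0.95 (SE 0.187) in input. Other lysosomal hosts outside the list were Gaa, the acid alpha-glucosidase, and Atp6v0a1, a subunit of the proton pump, with 3 peaks each.

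Among neuronal hosts, Sst was lower in 5xFAD input while Slc1a1 overlapped between the genotypes. Sst, the neuropeptide of somatostatin interneurons, held a peak at its start in 5 lists, with a median of 1.46-fold. Sst input was 200, 157, 131 and 112 CPM in wild-type, 69.3, 71.4, 91.6 and 106 CPM under vehicle and 77.2, 71.5, 65.1 and 62.8 CPM under MS1262. All 8 5xFAD animals were below all 4 wild-type animals. Sst IP was 154, 145, 108 and 81.3 CPM, then 142, 105, 151 and 285 CPM, then 107, 102, 109 and 119 CPM, and here the groups overlapped. The ratio was 0.726 to 0.926 in wild-type and 1.39 to 2.68 in 5xFAD. The log2 difference was -0.96 (SE 0.142) in input and 1.10 (SE 0.151) in m6A enrichment. Sst was the only host among 16 genes listed for inhibitory neurons, of which 11 held a merged peak of any kind. Over those 16 the median difference was -0.08 in input and -0.11 in m6A enrichment, the latter of opposite sign to Sst.

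Arc, an immediate early gene of active synapses, had a peak in 6 lists. Its input was 8.54, 10.3, 36.1 and 17.7 CPM in wild-type, 5.43, 4.22, 6.24 and 26.3 CPM under vehicle and 10.0, 6.27, 6.54 and 8.74 CPM under MS1262. The spread within wild-type and the fourth vehicle animal made the groups overlap. The log2 difference was -0.97 (SE 0.453) in input and 1.14 (SE 0.197) in m6A enrichment. In input it was -0.40 without the third wild-type animal and -1.47 without the fourth vehicle animal. Arc was the only host among 21 listed immediate early genes, of which 8 held a merged peak of any kind. Over that list the median difference was -0.37 in input and 0.12 in m6A enrichment. Among genes of excitatory neurons only Camk2a, of 15 listed, held a 5xFAD-only peak, beside 14 other merged peaks of which 11 were in a wild-type list. Among 23 synapse and channel genes, Shank3 (a postsynaptic scaffold) and Gria1 (an AMPA receptor subunit) held 1 each. Of the genes in these lists of 15 and 23, 12 and 21 held a merged peak of any kind. Slc1a1 input was 187, 179, 130 and 176 CPM in wild-type and 168 to 195 CPM in 5xFAD, and IP was 235 to 316 CPM and 165 to 324 CPM. For Slc1a1 the gene-level ratio was 1.45 to 1.81 in wild-type and 0.985 to 1.69 in 5xFAD, so that the peak at its start had no counterpart in the ratio of the whole gene. The log2 difference of Slc1a1 in m6A enrichment was -0.18 (SE 0.139), and -0.10 without the fourth vehicle animal.

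Oligodendrocyte-lineage hosts were Cldn11 and Mal, proteins of the myelin sheath, and Olig1 and Bcas1, markers of precursors and of newly forming oligodendrocytes. The Bcas1 peaks were in 8 and 7 lists and the others in 6. The log2 difference in m6A enrichment was 0.84 (SE 0.183) for Olig1, 0.72 (SE 0.147) for Bcas1 and 0.35 (SE 0.122) for Cldn11. In input Olig1 differed by -0.40 (SE 0.164) and Bcas1 by -0.36 (SE 0.169). Without the first wild-type animal Olig1 differed by -0.18, and without the fourth wild-type animal Bcas1 differed by -0.22. Hosts were 2 of 15 genes listed for oligodendrocytes and 2 of 10 for precursors. Of these listed genes, 11 and 6 held a merged peak of any kind. Over the whole lists the median difference was -0.03 and 0.08 in input, and -0.02 and 0.06 in m6A enrichment. The values of the hosts thus do not stand for their lists. No listed gene of endothelial and mural cells (15 genes), choroid plexus (11), meninges (14), blood (14) or the interferon response (19) held a 5xFAD-only peak. Of these genes 3, 4, 4, 1 and 0 held a merged peak of any kind, so that few could have been hosts.

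Of 18 m6A enzymes and readers, 8 held a merged peak of any kind and 1, Virma, held a 5xFAD-only peak, in 5 lists at 2.13-fold. Virma input was 42.6 to 51.2 CPM in wild-type and 45.1 to 54.7 CPM in 5xFAD. Its IP was 77.8, 76.0, 78.0 and 74.4 CPM in wild-type, 72.3, 72.6, 75.6 and 34.1 CPM under vehicle and 64.4, 62.3, 62.6 and 67.5 CPM under MS1262. Its log2 difference in m6A enrichment was -0.36 (SE 0.167), the opposite sign to most hosts, and -0.24 without the fourth vehicle animal. Of 17 genes of the G9a complex and of H3K9 methylation, Kdm4b, an H3K9 demethylase, and Mphosph8, a reader of H3K9 methylation, held 1 peak each in 6 lists. The m6A enrichment of Kdm4b differed by 0.87 (SE 0.161), with ratios of 0.982 to 1.56 in wild-type and 1.70 to 2.60 in 5xFAD. Of the 17 genes, 8 held a merged peak of any kind. Over the whole list the median difference in m6A enrichment was -0.06, of opposite sign to Kdm4b. At an adjusted p below 0.05 (edgeR) 1 of the 17 was higher and none lower, beside 2.15% and 0.104% of all genes.

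App, the mouse counterpart of a transgene and the precursor of amyloid beta, held 1 peak. It lay at chr16:85079753-85080190 and was found in 3 vehicle and 2 MS1262 lists. App carried 7 further merged peaks, none in a wild-type list and none in more than 4 5xFAD lists. The gene-level values did not separate the genotypes: App input was 594 to 744 CPM in wild-type and 522 to 716 CPM in 5xFAD, and the ratio was 0.652 to 0.815 and 0.711 to 0.794. Whether reads of the human transgenes entered the mouse counts was not tested.

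The 457 peaks in single protein-coding genes lay in 376 genes, of which 56 held 2 or more. Gfap, Arpc1b, Csf1r and Pcsk2 held 4 each, 17 genes held 3 and 35 held 2. Peaks of a gene share its transcript and are not independent. Arpc1b, whose protein nucleates branched actin, held no other merged peak. Its input was 13.7, 7.45, 4.86 and 6.18 CPM in wild-type, 7.50, 9.15, 8.93 and 19.6 CPM under vehicle and 11.4, 8.60, 7.96 and 6.31 CPM under MS1262. Arpc1b IP was 8.21 to 15.3 CPM in wild-type and 23.7 to 66.3 CPM in 5xFAD, with no overlap. Its log2 difference in m6A enrichment was 1.09 (SE 0.237).

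Crip2, a LIM-domain protein, held 3 peaks, in 8, 8 and 7 lists. Crip2 input was 102, 98.3, 98.0 and 60.2 CPM in wild-type, 34.6, 34.0, 43.6 and 99.4 CPM under vehicle and 68.1, 41.8, 30.1 and 28.2 CPM under MS1262. Crip2 IP was 57.7, 73.0, 62.8 and 32.8 CPM, then 70.8, 55.5, 57.3 and 224 CPM, then 97.5, 69.1, 62.5 and 65.3 CPM. The ratio was 0.545 to 0.743 in wild-type and 1.31 to 2.31 in 5xFAD, and the fourth vehicle animal was as high as wild-type in input and highest in IP.

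Sirt2, a deacetylase of oligodendrocytes and neurons, held 2 peaks, in 8 and 5 lists. Its ratio was 0.738 to 1.30 in wild-type and 2.03 to 4.05 in 5xFAD, and its log2 difference was -0.62 (SE 0.263) in input and 1.45 (SE 0.195) in m6A enrichment. The input difference was -0.37 without the first wild-type animal. Pcsk2, the prohormone convertase of neuropeptide cells, held 4 peaks in 5 to 7 lists. Its input was 374, 410, 435 and 375 CPM in wild-type, 240, 248, 294 and 439 CPM under vehicle and 472, 272, 235 and 231 CPM under MS1262. Its IP was 380 to 576 CPM in wild-type and 410 to 540 CPM in 5xFAD. The fourth vehicle and the first MS1262 animal thus had Pcsk2 input above all wild-type animals, while the other 6 5xFAD animals lay below all of them. Further genes with 3 peaks were Vcp, the segregase of misfolded proteins, Psmd8, a proteasome subunit, and Cltc, the heavy chain of clathrin. Others were Ecd, Wbp2, Pepd, Dkk3, Brinp1, Phactr1, Ddx56, Slc25a18, Cpt1c and Gle1.

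The hosts with the most negative differences in input were Lrrc49 (-1.08, SE 0.117), Pfdn6 (-1.01, SE 0.171), Arc, Sst, Crip2 (-0.91, SE 0.287) and Zfp414 (-0.83, SE 0.248). Pfdn6 encodes a subunit of prefoldin, a chaperone of actin and tubulin, and Lrrc49 a partner of tubulin polyglutamylases. Lrrc49 input was 71.1 to 82.4 CPM in wild-type and 26.4 to 45.5 CPM in 5xFAD. Lrrc49 IP was also lower, at 64.1 to 92.6 CPM and 45.0 to 58.8 CPM. In Pfdn6, input was 51.2 to 74.6 CPM and 21.2 to 40.5 CPM, whereas IP was 26.4 to 47.3 CPM and 33.8 to 69.6 CPM. The m6A enrichment of Crip2, Zfp414 and Pfdn6 differed by 1.54 (SE 0.163), 1.50 (SE 0.201) and 1.42 (SE 0.16).

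Across all 376 hosts the median log2 difference of 5xFAD from wild-type was -0.18 in input, against 0.00 over all 17693 genes tested, and 0.41 in m6A enrichment, against -0.03 over all 18300. In IP alone it was 0.24, against -0.01. Input was lower in 5xFAD for 284 hosts and higher for 92, and m6A enrichment was higher for 336 and lower for 40. All 8 5xFAD animals were below all 4 wild-type animals in input for 20 hosts, and above them for 6, beside 1.38% and 1.68% of all genes. For the ratio of IP to input, 124 hosts lay above with no overlap and none below, beside 2.75% and 1.25% of all genes. For IP alone the numbers were 33 and 2, beside 1.72% and 2.1%. In input, 13 hosts were called higher and 20 lower at an adjusted p below 0.05 (edgeR, beside 1.52% and 0.887% of all genes). The sum of 33 ran from 14 without the third wild-type animal to 64 without the fourth vehicle animal. At an adjusted p below 0.05, 121 hosts were called higher in m6A enrichment and none lower (edgeR, beside 2.15% and 0.104% of all genes). Without the animal as a block 1 host was called, without the fourth vehicle animal 203 were higher and 1 lower, and without the first or the fourth wild-type animal 55 and 61 were higher. All of these counts come from the contrast that chose the peaks.

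Input and IP moved differently from gene to gene. With a limit of 0.25 on the log2 scale, IP was higher and input was within the limit for 80 hosts, IP was higher and input lower for 74, and input was lower and IP within the limit for 77. Both were higher for 25 hosts, among them Gfap, Trem2, Lyz2, C4b, C1qa and C1qb. Both were within the limit for 112. For a set of 77 hosts, then, a higher ratio stood beside lower input and near-equal IP, and Sst and Arc belonged to it.

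**Figure D2:**
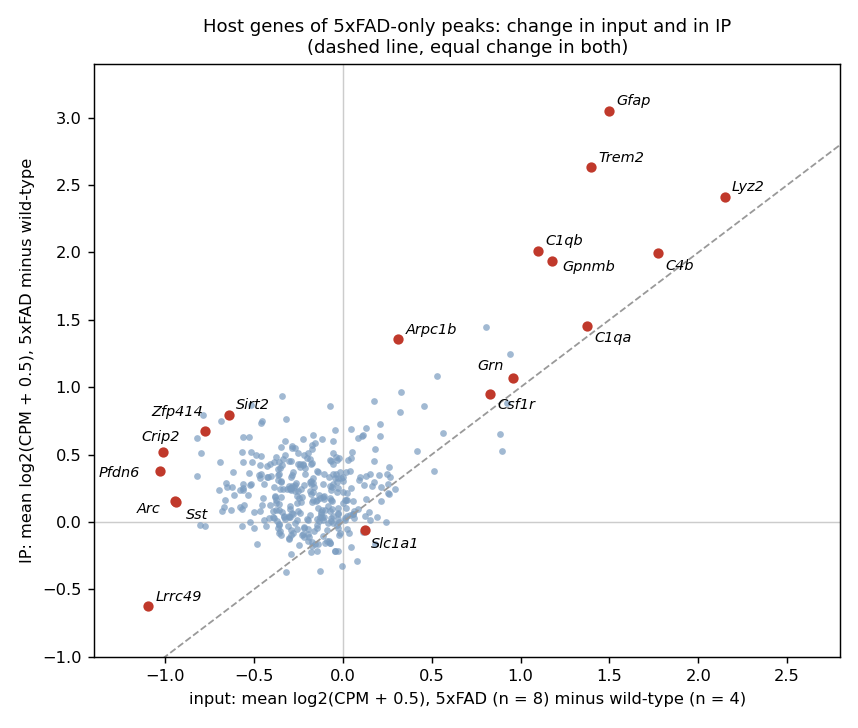
Difference of 5xFAD (n = 8) from wild-type (n = 4) in mean log2(CPM + 0.5) of input (x axis) and of IP (y axis) for 376 host genes, 1 point per gene, with named genes in red and a dashed line where both are equal. Gfap and the named microglial genes lie at the upper right, Sst, Arc and Pfdn6 at the left near an IP difference of 0 to 0.4, and Gfap and Trem2 are farthest above the line among genes with higher input.

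The host median also varied between animals of a group. Relative to the mean of wild-type, the median log2 input over hosts was 0.14, 0.09, -0.14 and -0.08 in wild-type, -0.32, -0.25, -0.16 and 0.05 under vehicle, and -0.03, -0.19, -0.26 and -0.26 under MS1262. The fourth vehicle and the first MS1262 animal lay within the wild-type range and the other 6 below it. The same median in IP was 0.07, 0.08, -0.03 and -0.10 in wild-type, 0.10, 0.10, 0.14 and 0.59 under vehicle, and 0.29, 0.22, 0.18 and 0.18 under MS1262. The animals with wild-type-like input were the 2 highest in IP. Over 1560 genes that held shared peaks and no 5xFAD-only peak, the median input ranged from -0.11 to 0.11 and the median IP from -0.05 to 0.09 over the 12 animals. Wild-type lists held 3856.5 ± 569 merged peaks, against 4860 ± 1401 under vehicle and 4918 ± 726 under MS1262 (SD, n = 4 each). The peak caller kept 12.6, 30.1, 9.58 and 14.4 M IP tags in the wild-type animals. It kept 5.48 to 27.8 M under vehicle and 18.4 to 27.7 M under MS1262. The part that input level and library depth play in the peak calls was not tested.

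**Figure D3:**
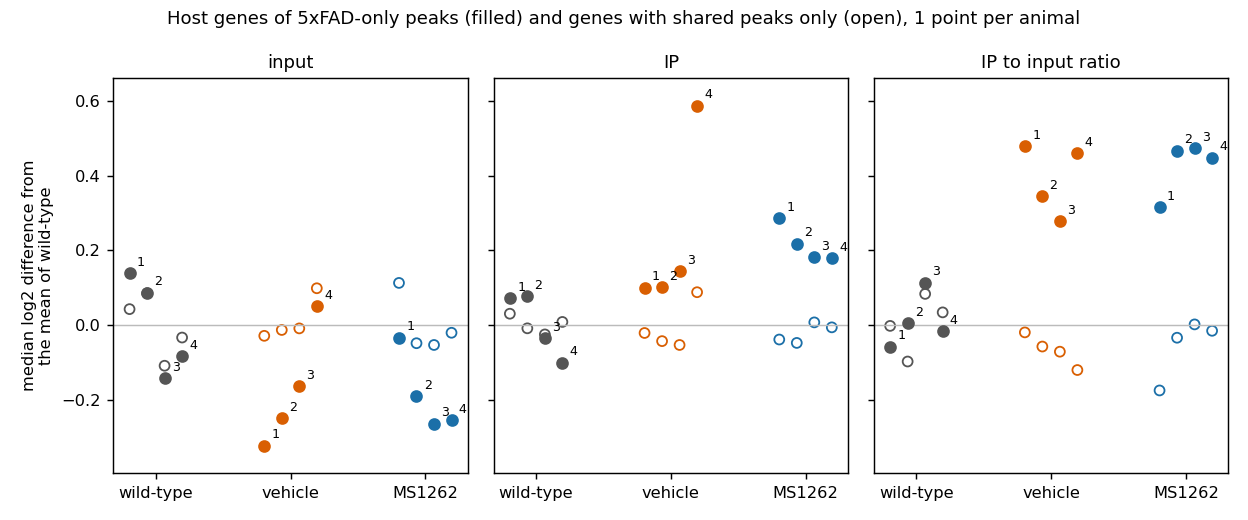
Median over 376 host genes (filled) and over 1560 genes with shared peaks only (open) of the log2 difference of each animal from the mean of wild-type, in input, IP and their ratio (y axis, log2), by group (x axis, n = 4 each, replicate numbers beside the points). In the ratio the host medians of 5xFAD animals lie between 0.28 and 0.48, and those of wild-type between -0.06 and 0.11.

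The median TPM (a level per transcript length) of host genes in wild-type input was 23.5, with a range of 1.23 to 902. It was 18.7 for the genes with shared peaks only and 3.58 over all genes tested for m6A enrichment. Another merged peak that was in a wild-type list was present in 160 of the 376 hosts (42.6%). In 130 there were other merged peaks but none in a wild-type list, and 86 hosts had no merged peak other than 5xFAD-only ones.

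**Figure D4:**
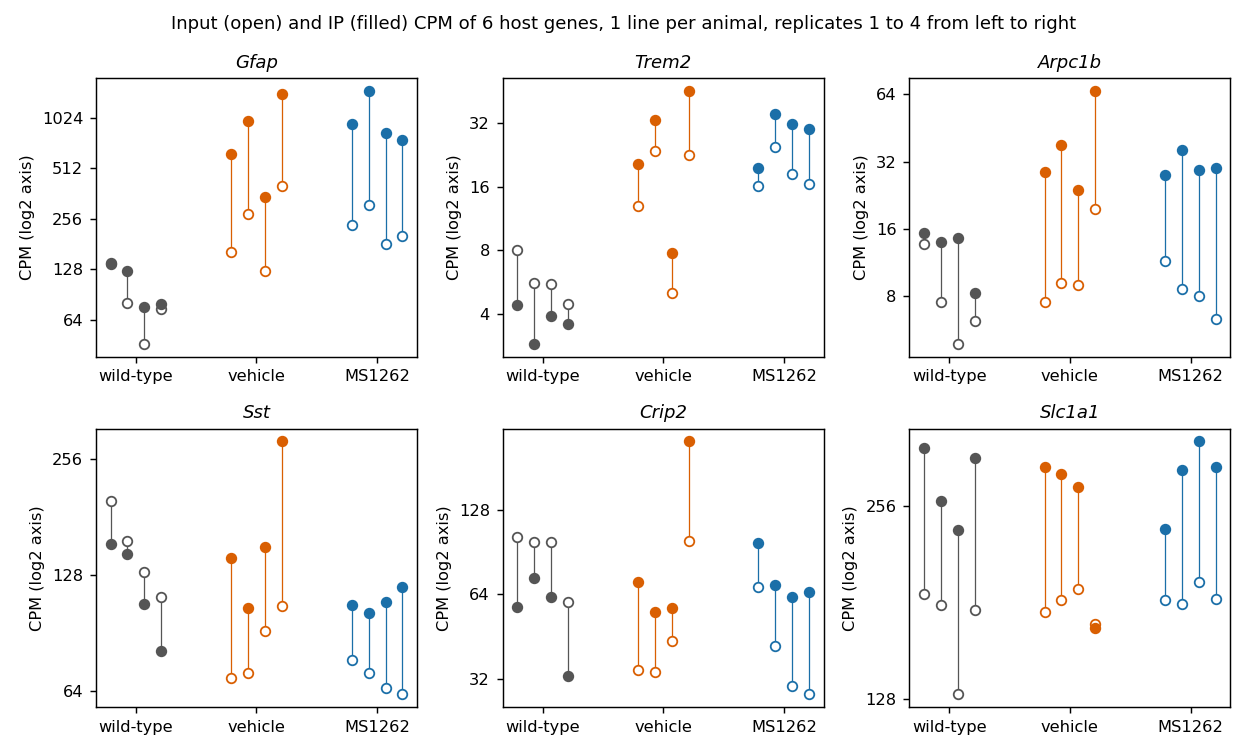
Input (open points) and IP (filled points) in CPM (y axis, log2 scale) of 6 host genes by group (x axis, n = 4 each), with a line joining the libraries of an animal and replicates 1 to 4 from left to right. In Gfap and Trem2 both levels are higher in most 5xFAD animals, in Sst and Crip2 IP crosses from below input in wild-type to above it in 5xFAD, and in Slc1a1 the groups overlap.

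The choice of peaks treated vehicle and MS1262 lists alike. It kept only peaks found in at least 1 list of each treatment, so complete losses or gains under MS1262 lay outside these counts. Vehicle lists held 431, 258, 293 and 300 of the 475 peaks and MS1262 lists 300, 410, 417 and 447. The mean was 320.5 ± 75.9 under vehicle and 393.5 ± 64.4 under MS1262 (SD, n = 4 each), a difference of 73 peaks (exact permutation test over 70 assignments, two-sided p = 0.257). The first vehicle animal was nearly as high as the highest MS1262 animal, and the first MS1262 animal was as low as the fourth vehicle animal. As a share of all merged peaks of an animal, the numbers were 7.24, 7.63, 7.42 and 4.87% under vehicle and 7.59, 8.42, 8.05 and 7.88% under MS1262. The means were 6.79 ± 1.29% and 7.99 ± 0.347% (exact permutation p = 0.0571, where the smallest possible value is 0.0286). Neither difference passed 0.05. The number of merged peaks of all kinds was 4860 ± 1401 and 4918 ± 726 (exact permutation p = 0.943). All 4 MS1262 lists held 212 of the peaks and all 4 vehicle lists 82.

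**Figure D5:**
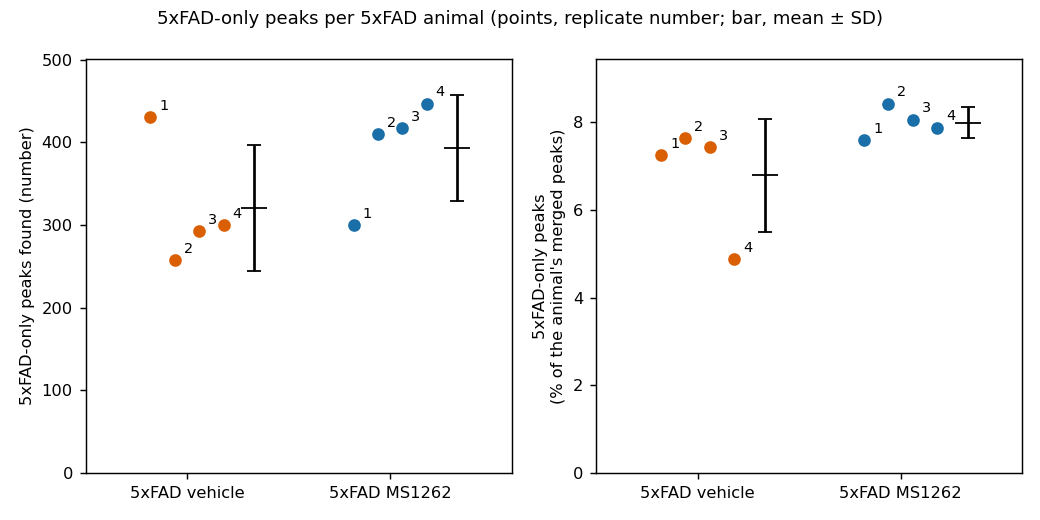
Number of the 475 5xFAD-only peaks found in each 5xFAD animal (left, y axis) and their share of the animal's merged peaks (right, y axis, %), by treatment (x axis, n = 4 each), with replicate numbers beside the points and the mean ± SD as a bar. The groups overlap on the left, and on the right the fourth vehicle animal is lowest at 4.87%.

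No host gene passed the test between MS1262 and vehicle. At an adjusted p below 0.05, edgeR called 0 of 376 hosts in input, beside 0% of 17693 genes, and 0 of 376 in m6A enrichment, beside 0% of 18300 genes. DESeq2 also called 0 hosts in both, beside 0% and 0.0109% of all genes. At an unadjusted p below 0.05 stood 9 hosts in input, beside 5.67% of all genes, and 7 hosts in m6A enrichment, beside 2.37%. Without the fourth vehicle animal the latter number was 43. The median log2 difference over hosts was -0.05 in input, against -0.01 over all genes (0.06 over hosts without the fourth vehicle animal), and 0.02 in m6A enrichment, against 0.05.

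Among the genes described above, Gfap differed by -0.06 (SE 0.343) in input and by 0.33 (SE 0.168) in m6A enrichment (edgeR adjusted p = 0.982 and 1). Trem2 differed by 0.23 (SE 0.353) and -0.08 (SE 0.184), and Slc1a1 by 0.05 (SE 0.101) and 0.14 (SE 0.161). Sst differed by -0.30 (SE 0.17) and -0.27 (SE 0.174). None of these passed the test, and the direction for Gfap in input turned in 4 of 8 fits that left out an animal, up to 0.31 without the fourth vehicle animal. None of the listed genes of microglia, astrocytes, lysosome, synapse, m6A enzymes or the G9a complex was called between MS1262 and vehicle in either measure.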

How the data were processed

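Poly(A) RNA of each hippocampus was split, per the labels' protocols, into input (10% of 150 ng) and a part bound by an anti-m6A antibody, and both became SMART-seq libraries. No fragmentation before the antibody step is described, so a peak need not mark the modified base. Per the file headers, peaks were called per animal with MACS2 2.1.2 on read 1 against the animal's own input (effective genome size 1e8, extension of 200 bases, q cutoff of 0.5, larger library scaled down). The deposited peaks carry a pileup signal, −log10 p and q values and a fold enrichment, all the authors' own. The authors deposited estimated counts and TPM per gene, and the submitters' processing notes name Salmon 1.4.0, STAR 2.7.6a and GRCm38. Of the nonzero estimated counts 22.1% were not whole, and they were rounded.

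edgeR 4.0.16 (quasi-likelihood, TMM, minimum count 10, Benjamini-Hochberg) was fitted on all genes, with the animal as a block for m6A enrichment. DESeq2 1.42.0 was an alternative. The labels do not state that replicate numbers pair animals across groups. Animals of equal number correlated by -0.09 to 0.05 in their deviations from group means in input. Input and IP of a number came from 1 animal, and all 12 IP libraries correlated best with their own input. Per-gene ratios are IP CPM over input CPM, both TMM-scaled. The scripts were tested on simulated data. The peaks, gene lists and naming rule (the highest peaks in all 8 lists, listed genes, genes with several peaks, peaks beside the limit, and hosts with extreme input differences) were chosen with earlier results of these data known. Gene positions come from RefSeq GRCm38.p6. Whether animals of a group shared a litter or cage is not given in the sources used here. A few items that this rule names are not reported here.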

Additional observations from a re-analysis of the deposited data

Results flagged for a closer look

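In groups of 4 animals, a value far from the other 3 (Dixon's test, 95% level) was looked for in group values and named genes. Of 210 groups, 23 held one, where chance gives about 1 in 20 among independent groups. These groups share the same animals and libraries, so the count is not a measure of excess. The fourth vehicle animal, with the shallowest IP library, stood apart most often. Its share of merged peaks that were 5xFAD-only was 4.87%, against 7.24 to 7.63% in the other vehicle animals, and its host median in IP was 0.59, against 0.10 to 0.14. Its IP was high for Arc (65.4 CPM), Caly (110.4 CPM), Crip2 (223.7 CPM), Gle1 (95.5 CPM), Ndufb7 (198 CPM) and Zfp414 (40.8 CPM), and low for Slc1a1 (165 CPM) and Virma (34.1 CPM). Its input was high for Arc (26.3 CPM), Arpc1b (19.6 CPM) and Crip2 (99.4 CPM). The third vehicle animal was low for C1qa in input (1.45 CPM) and in IP (2.89 CPM). Within the MS1262 group the first animal had the lowest host median of the ratio, 0.32 against 0.45 to 0.47.

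Single values in other animals were C4b IP in the second MS1262 animal (65.9 CPM), Shank3 IP in the first vehicle animal (13.2 CPM), Olig1 input in the third MS1262 animal (9.20 CPM), Olig1 input and Bcas1 IP in the first wild-type animal (15.8 and 78.5 CPM), and Crip2 input and Gpnmb IP in the fourth wild-type animal (60.2 and 6.08 CPM).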

How the results depend on the processing

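The number of 5xFAD-only peaks depended on the rule. It was 288 with at least 6 of 8 5xFAD lists, 754 with at least 4, and 1053 when 1 wild-type list was allowed. Leaving out an animal gave 310 to 830 peaks, the highest without the second wild-type animal and the lowest without the fourth MS1262 animal. The limits of at least 5 5xFAD lists and no wild-type list were kept. The rule was thus looser without a wild-type animal (504 to 830 peaks) and stricter without a 5xFAD animal (310 to 395). With q below 0.05 in every list the number was again 475, and 424 of those overlapped the 475 described. The difference in peaks per animal between MS1262 and vehicle kept its direction and did not pass 0.05 in any setting, with 52.2 to 110 peaks when an animal was left out. With a replicate block it was 73 peaks (exact sign-flip p = 0.375). Sign flips over 4 pairs cannot give a p below 0.05, so this setting could not have passed. The block gave 0 hosts called in input. Hosts called between MS1262 and vehicle stayed at 0 in all settings of both fits, including without the animal block. The host median of 5xFAD against wild-type ran from -0.21 to -0.12 in input and from 0.40 to 0.45 in m6A enrichment without single animals, and was 0.41 without the block. Directions of MS1262 against vehicle that turned without an animal were Gfap input (-0.27 to 0.31, and 0.0148 with the replicate block), Trem2 input (-0.0598 to 0.48), Trem2 m6A enrichment (-0.16 to 0.0248) and Slc1a1 m6A enrichment (-0.0272 to 0.23). The cause was not tested. Without the fourth vehicle animal, 204 hosts rather than 121 were called in m6A enrichment against wild-type, and 64 rather than 33 in input. Without a wild-type animal (1 to 4 in turn) 18, 19, 14 and 18 hosts were called in input, without the second vehicle animal 21 and without the third MS1262 animal 22.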

Other observations

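Genes of mitochondrial protein synthesis were also among the hosts, a group chosen after its values were seen and not tested. How many of these genes held a merged peak of any kind is not given here. Of 83 mitochondrial ribosomal protein genes in the m6A fit, 9 held a 5xFAD-only peak (Mrpl4, Mrpl14, Mrpl28, Mrpl53, Mrpl58, Mrps5, Mrps7, Mrps11 and Mrps12), against 376 of all 18300 genes (2.05%). Their median log2 difference of 5xFAD from wild-type was -0.46 in input and 0.84 in m6A enrichment, both from the contrast that chose the peaks. Of 49 complex I genes 1 was a host, Ndufb7, and of 51 proteasome genes 3 were, Psmd6, Psmd7 and Psmd8. Those proteasome hosts differed by a median of -0.09 in input and 0.27 in m6A enrichment.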
